A study of Mus musculus with 9 samples.

Results

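The miR-30 family of miRNAs was followed in small extracellular vesicles (smEVs) released by mouse kidney medullary (KM) cells with and without the ciliary proteins Bbs4 and Bbs6. Its members were taken by name as the entries mmu-miR-30a, mmu-miR-30b, mmu-miR-30c, mmu-miR-30d and mmu-miR-30e (mmu for mouse, left out from here on), which are 5 of the 1164 entries of the deposited miRNA count table. KM cells are immortalised epithelial cells derived from the medulla of mouse kidneys. The libraries came from control (WT) cells, from Bbs4-/- cells, which lack a subunit of the BBSome, and from Bbs6-/- cells, which lack a protein of the chaperonin type that the BBSome needs for its assembly. All 3 groups were grown without serum during the last 24 h, and 3 smEV pellets per line were taken for small RNA sequencing. Each genotype was represented by 1 cell line, so that genotype and line cannot be told apart. The pellets of a line were prepared independently, and the p-values below measure the spread between pellets of the same line.

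miRNAs are short RNAs of the Argonaute complex that pair with messenger RNAs, mainly through the seed (bases 2 to 8 from the 5′ end), and lower their stability and translation. The miR-30 family is abundant in the kidney, where it is known for its roles in nephron development, in podocytes and in the restraint of epithelial-to-mesenchymal transition. Its members carry the same seed and therefore share most predicted targets, while the rest of the molecule differs. The levels of the single members and of their sum are thus separate questions, and both were followed here.

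The mature sequences are shown because the shared seed defines the family and because the bases outside it decide how well reads of its members can be told apart. RefSeq (GRCm38.p6) gave them for 3 of the 5 members, namely miR-30a, miR-30c and miR-30e. The 5p strands read, 5′ to 3′ and with the seed in capitals:
miR-30a-5p: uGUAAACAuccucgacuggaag
miR-30c-5p: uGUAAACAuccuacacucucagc
miR-30e-5p: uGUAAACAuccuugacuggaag

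All 3 began with the same 12 bases and had the seed GUAAACA. This seed was held by 4 of the 1679 mature names in the RefSeq table. The remaining name was miR-384-5p, which had a count of 0 in all 9 libraries. miR-30a-5p and miR-30e-5p differed by the single substitution C13U (position counted from the 5′ end, miR-30a first). The opposite strands of these hairpins, also with bases 2 to 8 in capitals, were alike as well:
miR-30a-3p: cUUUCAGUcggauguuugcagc
miR-30e-3p: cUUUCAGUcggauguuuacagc

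They differed by G18A only. The deposited entries carry no strand name, so that the counts of miR-30a and miR-30e may stand for either strand, and the number of mismatches allowed when reads were assigned is not given in the sources used here. How far reads of miR-30a and miR-30e were shared was not tested. The names of the 3p strands of miR-30c carry a locus number, which leaves the entry miR-30c to its 5p strand.

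The 6 hairpins that give rise to the 5 members lie in 3 pairs in the mouse genome (GENCODE vM21, GRCm38). Mir30a (chr1:23272269-23272339, plus strand) overlaps no other annotated gene, and Mir30c-2 (chr1:23291701-23291784, plus strand), in an exon of the lincRNA Gm27028, starts 19432 bp further on. Mir30c-1 (chr4:120769534-120769622) and Mir30e (chr4:120772606-120772697), both on the minus strand, lie in introns of Nfyc, which encodes a subunit of the transcription factor NF-Y, with starts 3072 bp apart. The annotation also lists Mir30f at the position of Mir30e on the plus strand, whose entry had a count of 0 in all 9 libraries. Mir30b (chr15:68337415-68337510) and Mir30d (chr15:68341208-68341289), both on the minus strand, have starts 3793 bp apart, and Mir30d lies in an exon of the lincRNA Gm20732. miR-30c is therefore the member that can come from both the pair on chromosome 1 and the pair on chromosome 4.

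The deposited values were counts per miRNA after removal of PCR duplicates by unique molecular identifiers. The libraries held 64118 to 130905 miRNA counts in WT, 176935 to 457163 in Bbs4-/- and 192654 to 423784 in Bbs6-/-, so all WT libraries were shallower than any mutant library. Levels are given as CPM, counts relative to the library size as scaled by edgeR's TMM method. A count of 0 still allows up to 3 counts, which amounted to 6.98 to 36.5 CPM. Library numbers are those of the deposited columns, namely 1, 3 and 4 for WT, 1, 2 and 3 for Bbs4-/-, and 2, 3 and 4 for Bbs6-/-. Bbs6-/- library 2 stood apart from the others of its line, with chi-square values of 86.2 and 110 per degree of freedom against libraries 3 and 4, which were at 12.4 against each other. The 5 epithelial marker miRNAs of the miR-200 family held 1.28% to 1.41% of the counts in WT, 1.52% to 1.86% in Bbs4-/- and 1.57% to 1.83% in Bbs6-/-. Their summed share was thus higher in both mutants, as was miR-30d, and their part in the results below was not tested. Of these markers, miR-141 was at 0 in all WT libraries and miR-200c at 1 to 2 counts there. In the edgeR tests against WT below, miR-200c and miR-141 rose by 7.97 and 7.35 (log2) in Bbs4-/-, and by 7.89 and 7.69 in Bbs6-/-. miR-200a, miR-200b and miR-429 were at 0.14, 0.19 and 0.24 in Bbs4-/-, and at 0.74, 0.47 and 0.49 in Bbs6-/-. None of these 3 had an adjusted p under 0.1. The kidney-enriched miR-192, miR-194 and miR-204 together made up at most 0.0345% of the counts. The 12 markers of other cell types summed to 0.145% to 0.240%, most of it miR-206, and the ranges of this sum overlapped between all groups. Among their classes, the smooth muscle and fibroblast markers, with miR-143 counted and miR-145a at 0 in all libraries, summed to 0.00565% to 0.0172% in WT, 0.0112% to 0.0267% in Bbs4-/- and 0.00165% to 0.00591% in Bbs6-/-, so that the mutants did not overlap. In smEV pellets, fewer vesicles that carry a miRNA and fewer copies per vesicle cannot be told apart.

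The family was among the abundant cargo of the vesicles. miR-30a ranked between 5 and 11 among all entries of a library, miR-30d between 11 and 19, miR-30c between 19 and 34, miR-30e between 31 and 37, and miR-30b between 73 and 108. Within every group the mean levels followed the order miR-30a, miR-30d, miR-30c, miR-30e and miR-30b. All neighbours in this order had separate CPM ranges, except miR-30d and miR-30c in WT. The 2 entries with a locus number, which were not counted as members, were scarce, with 0 to 5 counts for miR-30c-1 and 18 to 84 counts for miR-30c-2.

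**Figure D1:**
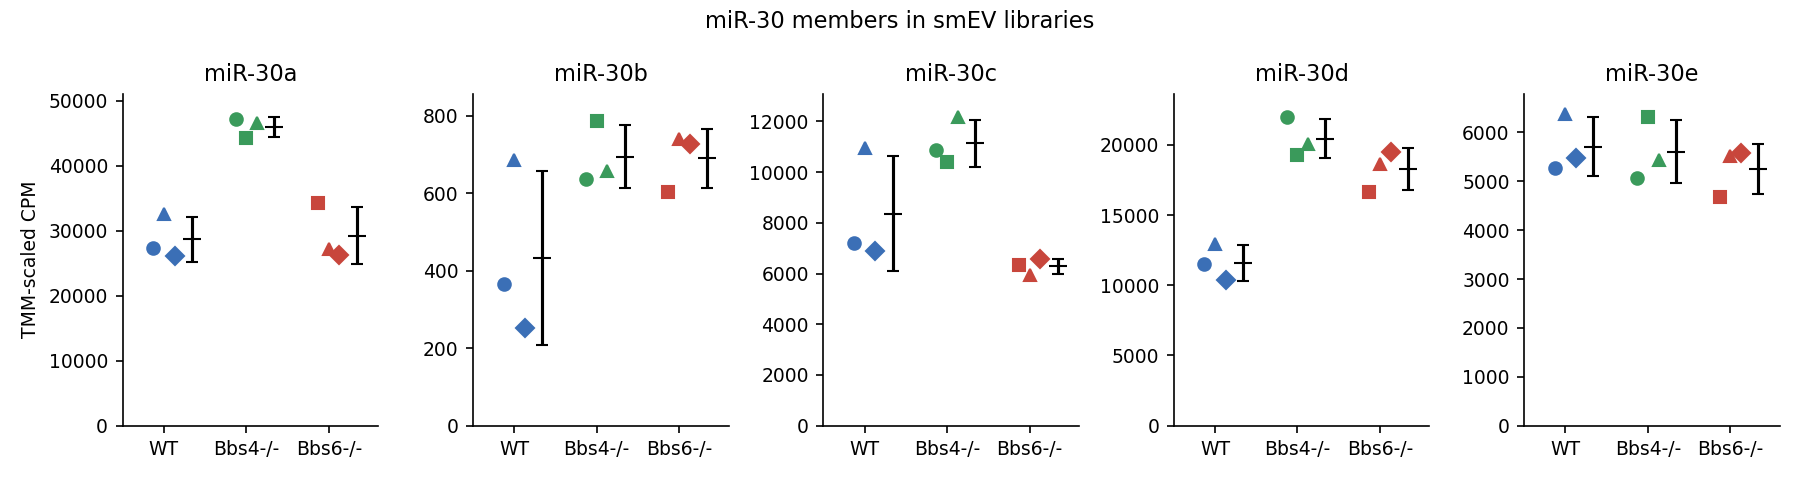
Level of each miR-30 member, as TMM-scaled CPM on a linear axis from 0, in the 3 WT (blue), 3 Bbs4-/- (green) and 3 Bbs6-/- (red) smEV libraries; circles, squares, triangles and diamonds are libraries 1, 2, 3 and 4, and black bars give mean ± SD (n = 3). For miR-30a the Bbs4-/- libraries lie above all others, for miR-30d both mutants lie above WT, for miR-30c the Bbs6-/- libraries lie lowest, and miR-30e overlaps between all groups.

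miR-30a, the most abundant member, was measured at 27341, 32549 and 26039 CPM in WT libraries 1, 3 and 4. It was at 47167, 44216 and 46514 CPM in Bbs4-/- libraries 1, 2 and 3, and at 34199, 27197 and 26279 CPM in Bbs6-/- libraries 2, 3 and 4. All Bbs4-/- libraries were thus above all WT and Bbs6-/- libraries, whereas Bbs6-/- and WT overlapped, with means of 29225 ± 4332 and 28643 ± 3445 CPM (SD, n = 3 each).

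miR-30d was measured at 11476, 12931 and 10356 CPM in the WT libraries. It reached 21943, 19295 and 20090 CPM in Bbs4-/- and 16622, 18653 and 19498 CPM in Bbs6-/-. Every mutant library lay above every WT library, and the mutants overlapped each other. Its hairpin partner miR-30b was far scarcer, with 30, 77 and 39 counts in the WT libraries, or 365, 686 and 252 CPM. It was at 639, 788 and 659 CPM in Bbs4-/- and at 604, 742 and 727 CPM in Bbs6-/-. WT libraries 1 and 4 were the lowest of all 9, and WT library 3 lay inside the range of the mutants.

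miR-30c was measured at 7221, 10971 and 6891 CPM in WT, at 10867, 10387 and 12169 CPM in Bbs4-/-, and at 6344, 5960 and 6563 CPM in Bbs6-/-. The Bbs6-/- libraries were the lowest and did not overlap with either other group, and WT library 3 lay among the Bbs4-/- libraries. miR-30e was at 5264, 6385 and 5475 CPM in WT, 5057, 6315 and 5441 CPM in Bbs4-/-, and 4670, 5509 and 5576 CPM in Bbs6-/-. Its ranges overlapped between all groups.

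Summed over its members, the family held 6.63%, 6.72% and 5.79% of the miRNA counts in WT libraries 1, 3 and 4. It held 7.66%, 8.48% and 7.97% in Bbs4-/- and 5.91%, 5.28% and 4.83% in Bbs6-/-. The group means were 6.38% ± 0.510, 8.04% ± 0.416 and 5.34% ± 0.538 (SD, n = 3 each), and the Bbs4-/- libraries lay above both other groups. The shallowest library, WT 1, had an exact binomial 95% interval of 6.44% to 6.82%, which covers counting error only. The Bbs6-/- and WT ranges overlapped, and the direction between them depended on the scale, since on TMM-scaled CPM the Bbs6-/- mean (59715) was above the WT mean (54734), again with overlapping ranges. Bbs4-/- was highest on this scale too, at 83849 ± 2498 CPM. As a reference, 2 other families were summed in the same way. The let-7 family held 23.9% ± 1.43 in WT, 27.7% ± 3.31 in Bbs4-/- and 30.3% ± 5.33 in Bbs6-/-. The miR-29 family held 0.696% ± 0.0900, 0.670% ± 0.179 and 1.03% ± 0.224. Both had their highest mean in Bbs6-/-. In percent of counts miR-30 had its lowest mean there, but on TMM-scaled CPM its lowest mean was in WT. The percentages of let-7 overlapped between all groups, and those of miR-29 were separate only between Bbs6-/- and WT. On TMM-scaled CPM more groups were separate. The mean of let-7 was then 1.43-fold that of WT in Bbs4-/- and 1.68-fold in Bbs6-/-, both without overlap. For miR-30 the ratio of Bbs4-/- to WT was 1.53 on this scale, also without overlap. miR-29 was separate between Bbs6-/- and WT (1.93-fold) and between the mutants (0.595, Bbs4-/- over Bbs6-/-). No test of a difference between families was made.

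**Figure D2:**
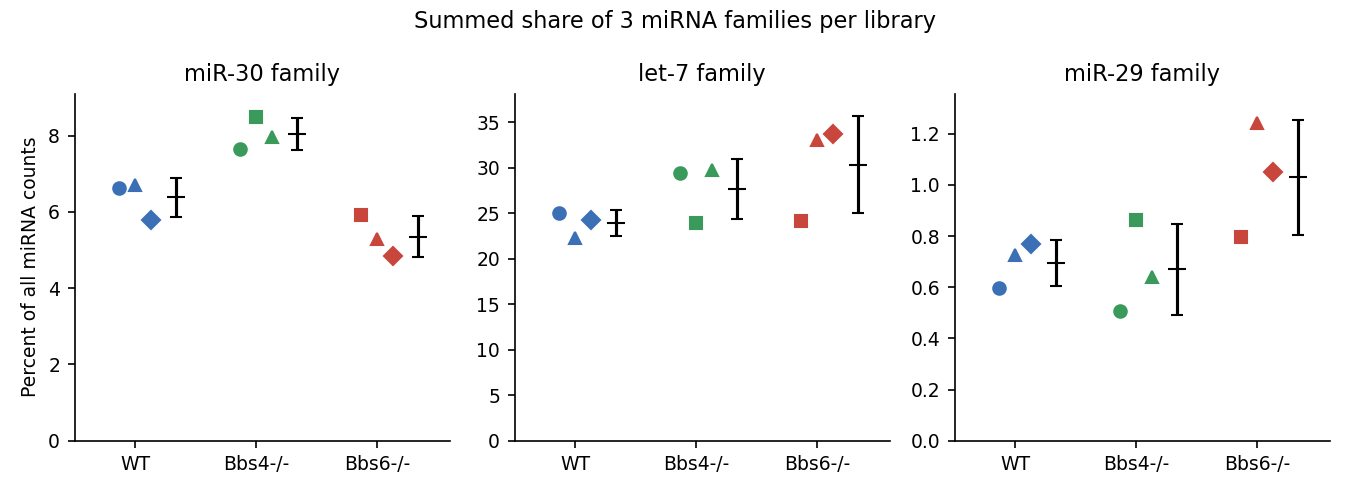
Percent of all miRNA counts held by the miR-30 family (sum of 5 members), the let-7 family and the miR-29 family in each library, on linear axes from 0; colours are genotypes, circles, squares, triangles and diamonds are libraries 1, 2, 3 and 4, and black bars give mean ± SD (n = 3). The miR-30 share was 7.66% to 8.48% in Bbs4-/- and at most 6.72% in the other libraries.

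The loss of Bbs4 was examined by comparing Bbs4-/- with WT smEVs in edgeR's quasi-likelihood test, fitted over 308 miRNAs whose counts summed to at least 6 in the 6 libraries. All 5 members passed this filter, 2 of them rose and none fell at a Benjamini-Hochberg adjusted p under 0.1, where 8.77% of all miRNAs tested were called higher and 6.49% lower. The members' median log2 fold change was 0.57, against -0.015 over all miRNAs tested. miR-30d was higher by 0.71 on the log2 scale (SE 0.18, adjusted p = 0.0177), which is 1.64-fold with a 95% interval of 1.25 to 2.14. miR-30a was higher by 0.57 (SE 0.18, adjusted p = 0.0578), or 1.49-fold (1.14 to 1.95). Both also had libraries that did not overlap between the groups, as did 20.8% of the miRNAs tested in the higher direction.

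The other members did not pass the test in Bbs4-/-. The log2 fold change was 0.58 for miR-30b (95% interval -0.18 to 1.35, adjusted p = 0.335), 0.31 for miR-30c (-0.15 to 0.76, adjusted p = 0.382) and -0.13 for miR-30e (-0.56 to 0.30, adjusted p = 0.736). On the log2 scale the interval of miR-30e overlaps that of miR-30a (0.18 to 0.97) and ends below that of miR-30d (0.33 to 1.10). The members were not tested against each other. The call of miR-30d held in all 15 alternatives run, with log2 fold changes of 0.53 to 0.89 and adjusted p of 3.75e-04 to 0.0780. That of miR-30a held in 12 of 15 and was lost without Bbs4-/- library 1 (adjusted p = 0.107), Bbs4-/- library 3 (0.138) or WT library 4 (0.198). Without WT library 3, the highest WT library in every member, miR-30b rose by 1.17 (adjusted p = 0.0374) and miR-30c by 0.64 (adjusted p = 0.0268), and 4 of 5 members were called. With every library thinned to the 64118 counts of the shallowest, miR-30a and miR-30d were called in 20 of 20 draws.

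The loss of Bbs6 was examined in the same way against the same WT libraries, over 298 miRNAs. All 5 members passed the filter, 1 rose and none fell at an adjusted p under 0.1, where 9.73% of all miRNAs tested were called higher and 5.37% lower. The member that rose was again miR-30d, by 0.69 on the log2 scale (SE 0.17, adjusted p = 0.0417), or 1.61-fold (95% interval 1.23 to 2.11). Its libraries did not overlap with WT, as for 17.4% of the miRNAs tested in the higher direction. The members' median log2 fold change was 0.050, against -0.011 over all miRNAs. Of the others, miR-30b was at 0.74 (95% interval -0.097 to 1.57, adjusted p = 0.272), miR-30a at 0.050 (-0.30 to 0.40, adjusted p = 0.894) and miR-30e at -0.087 (-0.51 to 0.34, adjusted p = 0.832). miR-30c was at -0.37 (-0.80 to 0.060, adjusted p = 0.283); its Bbs6-/- libraries lay below all WT libraries, as did those of 11.7% of the miRNAs tested.

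The calls in Bbs6-/- depended on the scale. With total counts in place of TMM, the median of all miRNAs moved from -0.011 to -0.44, miR-30d was at 0.26 (adjusted p = 0.364), and miR-30c was called lower at -0.79 (adjusted p = 0.0296). Taken relative to the median of all miRNAs, miR-30d was at 0.70 on both scales, and miR-30c was at -0.36 with TMM and at -0.35 with total counts. The call of miR-30d was also lost without Bbs6-/- library 3 (adjusted p = 0.260), Bbs6-/- library 4 (0.10003), WT library 3 (0.103) or WT library 4 (0.216), and it was made in 8 of 20 draws thinned in this way. Without Bbs6-/- library 2 it was at 0.78 (adjusted p = 0.00201). Its log2 fold change lay above 0 in all 15 alternatives, between 0.26 and 0.78.

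**Figure D3:**
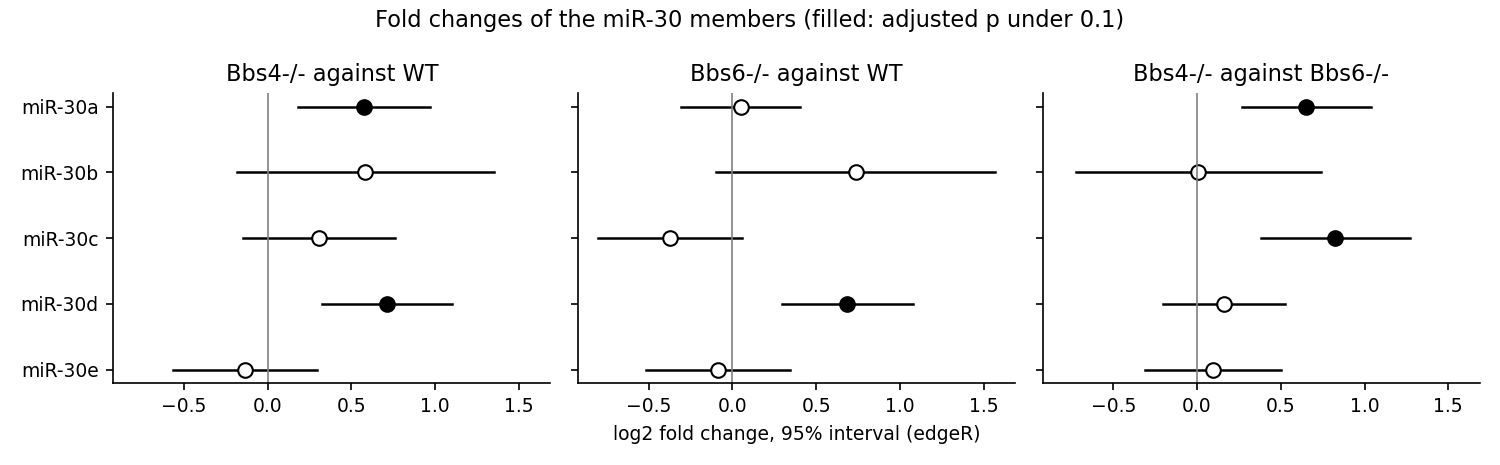
Log2 fold change of each miR-30 member (points) with its 95% interval (lines) from edgeR's quasi-likelihood test in the 3 comparisons; filled points have an adjusted p under 0.1, and the grey line marks no change. miR-30d is filled in both comparisons with WT, miR-30a against WT in Bbs4-/- and between the mutants, and miR-30c between the mutants.

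Whether the mutants differed from each other was tested directly, in a fit of all 9 libraries over 309 miRNAs whose counts summed to at least 9. All 5 members passed the filter, 2 were higher in Bbs4-/- and none lower, where 8.09% of the miRNAs tested were called, 4.21% higher and 3.88% lower. miR-30c was higher in Bbs4-/- than in Bbs6-/- by 0.83 on the log2 scale (SE 0.21, adjusted p = 0.0350), or 1.77-fold (95% interval 1.30 to 2.41). miR-30a was higher by 0.65 (SE 0.18, adjusted p = 0.0569), or 1.57-fold (1.21 to 2.05). For both, the libraries of the mutants did not overlap, as for 14.2% of the miRNAs tested in this direction and 7.77% in the other. miR-143 was also called higher in Bbs4-/- here, by 2.19 (SE 0.58, adjusted p = 0.0484), and its part in the results of miR-30a and miR-30c was not tested; it is named after its values were seen. miR-30d, called in each mutant against WT, was at 0.16 between them (95% interval -0.20 to 0.53, adjusted p = 0.733), miR-30e at 0.094 (-0.31 to 0.50, adjusted p = 0.856) and miR-30b at 0.0082 (-0.72 to 0.74, adjusted p = 0.991).

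The call of miR-30c between the mutants held in 16 of 18 alternatives and was lost without Bbs4-/- library 3 (adjusted p = 0.207) or Bbs6-/- library 3 (0.276). The call of miR-30a held in 13 of 18 and was lost without Bbs4-/- library 3 (adjusted p = 0.207), Bbs6-/- library 3 (0.396) or Bbs6-/- library 4 (0.191), with no filter on low counts (0.125), and in a fit of the 6 mutant libraries alone (0.174). Without Bbs6-/- library 2, the library that stood apart, both calls were kept, at 0.72 for miR-30a (adjusted p = 0.0199) and 0.77 for miR-30c (adjusted p = 0.0296). After thinning, miR-30c was called in 19 and miR-30a in 18 of 20 draws. In none of the 3 comparisons did a member reach the fold limit of the study's own rule, a log2 fold change of at least 2, which with an adjusted p under 0.1 was met by 6.17%, 4.03% and 3.88% of all miRNAs tested.

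Since the members were measured in the same library, their proportions do not depend on depth or scaling. miR-30a made up 52.4% of the family's counts on average in WT, 54.8% in Bbs4-/- and 48.8% in Bbs6-/-. In Bbs4-/- this share was nearly constant, at 54.6% to 55.1%, whereas in Bbs6-/- it was 54.8% in library 2 and 46.8% and 44.8% in libraries 3 and 4. miR-30d held 20.4% to 22.2% of the family in WT, 23.7% to 25.6% in Bbs4-/- and 26.6% to 33.2% in Bbs6-/-, so that the 3 groups did not overlap. How often such shares separate was not counted over all miRNAs. miR-30c held 13.98% to 17.3% in WT, 12.7% to 14.3% in Bbs4-/- and 10.2% to 11.2% in Bbs6-/-. miR-30e lay below the WT range of 10.1% to 11.2% in all mutant libraries, with 5.90% to 7.80% in Bbs4-/- and 7.48% to 9.51% in Bbs6-/-. The CPM of miR-30e overlapped between all groups. The shares are parts of the same sum, so that a gain of other members lowers the share of miR-30e. miR-30b stayed a small part, at 0.514% to 1.28% over all libraries.

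**Figure D4:**
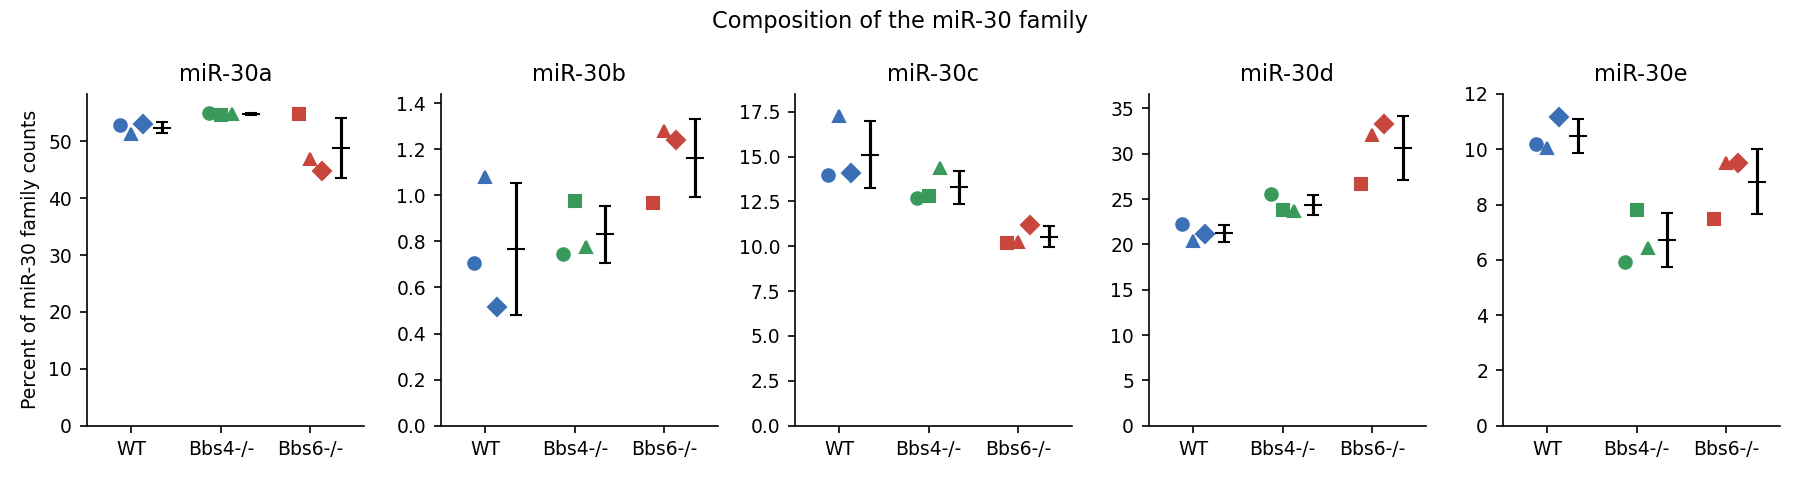
Percent of the miR-30 family's counts held by each member in each library, on linear axes from 0; colours are genotypes, circles, squares, triangles and diamonds are libraries 1, 2, 3 and 4, and black bars give mean ± SD (n = 3). The miR-30d share was lowest in WT (20.4% to 22.2%) and highest in Bbs6-/- (26.6% to 33.2%), and the miR-30e share was highest in WT.

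Ratios between pairs of members gave the same information member by member. Of the 10 pairs, 6 had separate ratios in Bbs4-/- and WT, 6 in Bbs6-/- and WT, and 5 in the mutants. Over all 6328 pairs of the 113 miRNAs that reached 10 counts in each library, 40.9%, 43.8% and 34.2% of ratios did not overlap in these comparisons, so that separation of a ratio was common in these data. The ratio of miR-30c to miR-30d was 0.629, 0.848 and 0.665 in WT libraries 1, 3 and 4, then 0.495, 0.538 and 0.606 in Bbs4-/- and 0.382, 0.320 and 0.337 in Bbs6-/-. All 3 groups were separate in this ratio, with WT highest and Bbs6-/- lowest, and separation of all 3 groups was not counted over all pairs. The ratios of miR-30a to miR-30d and of miR-30b to miR-30e separated all 3 groups too. That of miR-30a to miR-30d was 2.38 to 2.52 in WT, 2.15 to 2.32 in Bbs4-/- and 1.35 to 2.06 in Bbs6-/-. For miR-30b to miR-30e it was 0.046 to 0.107 in WT, 0.121 to 0.126 in Bbs4-/- and 0.129 to 0.135 in Bbs6-/-. The ratio of miR-30d to miR-30e was 2.18, 2.03 and 1.89 in WT, 4.34, 3.06 and 3.69 in Bbs4-/-, and 3.56, 3.39 and 3.50 in Bbs6-/-. Both mutants lay above WT and overlapped each other.

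The ratio of miR-30a to miR-30e, the pair that differs by a single base, was 4.76 to 5.19 in WT and 7.00 to 9.33 in Bbs4-/-. In Bbs6-/- it was 4.94 and 4.71 in libraries 3 and 4 and 7.32 in library 2, so that this group overlapped with both others. miR-30b and miR-30d, whose hairpins are neighbours on chromosome 15, had a ratio of 0.0291 to 0.0409 in the mutants. This lay inside the WT range of 0.0243 to 0.0530, which rests on 30 to 77 counts of miR-30b. Other members with neighbouring hairpins had ratios that separated some groups. For miR-30a to miR-30c it was 2.97 to 3.79 in WT and 3.82 to 4.34 in Bbs4-/-, and Bbs6-/- also lay above WT. For miR-30c to miR-30e it was 1.64 to 2.24 in Bbs4-/- and 1.08 to 1.36 in Bbs6-/-, with WT overlapping both.

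**Figure D5:**
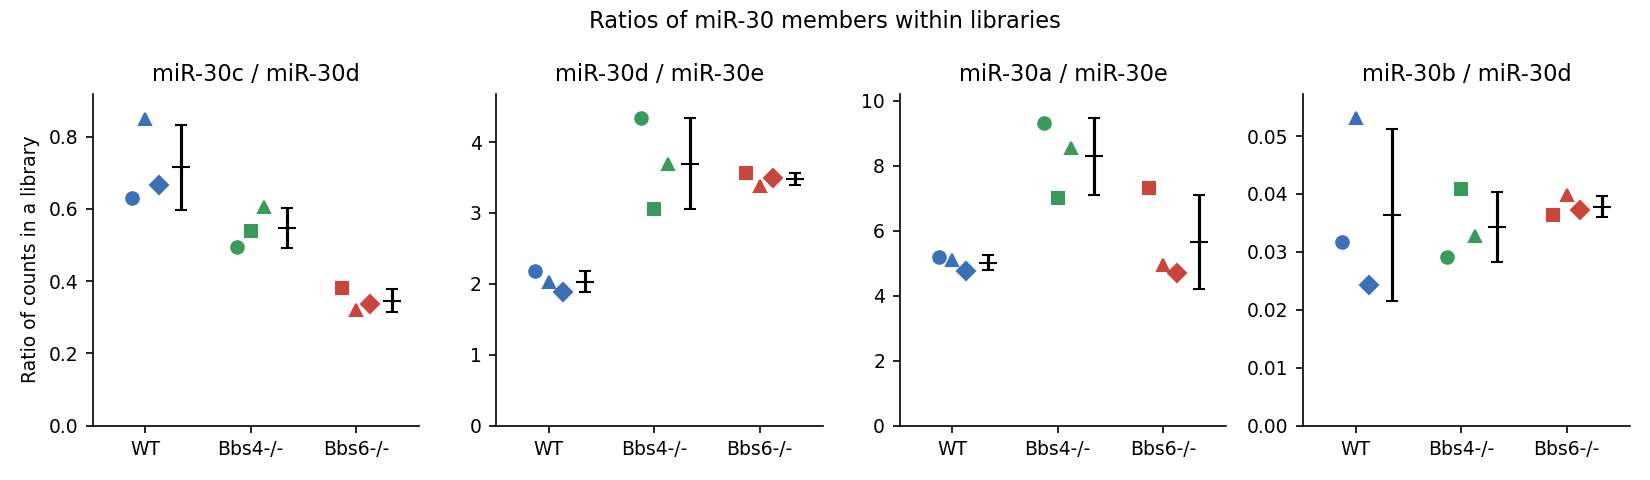
Ratio of counts of 4 pairs of miR-30 members within each library, on linear axes from 0; colours are genotypes, circles, squares, triangles and diamonds are libraries 1, 2, 3 and 4, and black bars give mean ± SD (n = 3). The ratio of miR-30c to miR-30d separates all 3 groups, that of miR-30d to miR-30e separates WT from both mutants, and that of miR-30b to miR-30d overlaps between all groups.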

How the data were processed

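Small RNA of smEV pellets (differential centrifugation) was sequenced in 9 libraries, 3 per cell line. The deposited values are counts per miRNA, not normalized: the authors trimmed adapters (cutadapt 1.9), filtered reads by quality, collapsed reads by unique molecular identifiers, removed short reads and counted miRNAs with miRDeep2, keeping the largest count where a miRNA had several entries. Its genome build and miRBase release are not given in the sources used here. As mRNAs are not in the table, the knocked-out transcripts could not be checked. Samples were grouped by genotype in the labels. Columns of Bbs6-/- and WT carry other replicate numbers than the labels and were mapped to their genotype only.

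For the tests, edgeR 4.0.16 in R 4.3.3 was run on the counts, with TMM scaling, the quasi-likelihood test and Benjamini-Hochberg adjustment over all miRNAs tested. Each mutant was compared with WT on its 6 libraries, and both comparisons share the WT libraries. CPM used TMM factors over all 9 libraries. Standard errors were derived from the log2 fold change and F. The family sum and the ratios were described without a test. Alternatives were DESeq2 1.42.0, other scaling, filters, libraries in the fit, spread estimates and thresholds, each library left out in turn, and, chosen after seeing the data, thinning to the smallest library (20 draws) and the column number as a block. The test was tried on simulated counts, with planted changes larger than any fold change of a member and with the members left unchanged. This trial does not cover changes of the size reported here. Named miRNAs are all 5 members, the locus-numbered entries and the 3 miRNAs most like the summed family. Cell type markers, the let-7 and miR-29 families, miR-384 and miR-21a are named beside them. The test result of the marker miR-143 was named after its values were seen. The members, lists and tests were chosen with earlier results of these data known. Sequences are from RefSeq. Figures were drawn with matplotlib 3.10.9.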

Additional observations from a re-analysis of the deposited data

Results flagged for a closer look

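The direct test between Bbs4-/- and Bbs6-/- libraries in edgeR called a difference between the 2 lines for 2 members, where 8.09% of all miRNAs tested were called. miR-30a was higher in Bbs4-/- by 0.65 (log2, adjusted p = 0.0569) and miR-30c by 0.83 (adjusted p = 0.0350). In both, 3 of 3 Bbs4-/- libraries lay above all Bbs6-/- libraries, as for 14.2% of the miRNAs tested. The call of miR-30a held in 13 of 18 alternatives and was lost, among others, with the 6 mutant libraries alone (adjusted p = 0.174), and that of miR-30c held in 16 of 18. Mutation and cell line cannot be told apart.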

How the results depend on the processing

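The number of members called fell from 2 to 1 (Bbs4-/- against WT), and from 2 to 1 (Bbs4-/- against Bbs6-/-), at an adjusted p under 0.05, and to 0 in all 3 comparisons with the study's fold limit of 2. Between the mutants it was 1 without a filter and 1 with the 6 mutant libraries alone. For Bbs6-/- against WT it fell from 1 to 0 by the median adjusted p over 20 draws thinned to the smallest library, although miR-30d was called in 8 of these draws and miR-30c in 1. Leaving out 1 library at a time gave 1 to 4, 0 to 1 and 0 to 2 members in the order Bbs4-/- against WT, Bbs6-/- against WT and Bbs4-/- against Bbs6-/-. The summed share differed by 1.66 percentage points (Bbs4-/- against WT), -1.04 (Bbs6-/- against WT) and 2.70 (between the mutants). Without miR-21a in the total these were 2.66 and 3.19 for Bbs4-/- against WT and between the mutants, with TMM-effective library sizes 2.91 for Bbs4-/- against WT and 0.498, a reversal, for Bbs6-/- against WT, and with 1 library left out 1.37 to 1.85, -1.33 to -0.785 and 2.45 to 2.98.

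No called member reversed in any alternative run. The log2 fold changes that reversed belonged to members not called. miR-30a in Bbs6-/- against WT was at -0.35 with total counts, -0.057 with filterByExpr, -0.11 after thinning, and -0.078 to 0.19 with 1 library left out. Between the mutants, miR-30b was at -0.059 with DESeq2, -0.058 with its size factors, -0.13 without a filter, -0.14 with 6 libraries and -0.16 to 0.047 with 1 library left out, and miR-30e at -0.040, -0.057 and -0.072 to 0.14 in the last 3 of these. With 1 library left out, miR-30e was at -0.14 to 0.044 in Bbs4-/- and at -0.24 to 0.023 in Bbs6-/- against WT. The causes were not tested. The log2 ratio of each member to the sum of the others moved by less than 1 SD in all 90 values recomputed without a library. Within that spread, the difference between Bbs4-/- and WT for miR-30b was 0.18 and ranged from -0.081 to 0.46, and that between Bbs6-/- and WT for miR-30a was -0.21 and ranged from -0.38 to -0.093.

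The planned replicate block by label numbers was not run, because Bbs6-/- and WT columns carry other numbers. A block by column numbers, fitted to all 9 libraries after seeing the data, left 2, 1 and 2 members called in the same order. It changed no call and reversed miR-30a in Bbs6-/- against WT (-0.014) and miR-30b between the mutants (-0.046), neither called. Deviations from group means over 113 miRNAs correlated at 0.171 to 0.610 in 6 library pairs of the same number, at most 2 per comparison. Other pairs were positive within numbers 1 and 2 and within 3 and 4 (to 0.422), and negative across these sets (to -0.586). No block by set was run, and Bbs4-/- had more of the first set. No source says what the numbers mark. Depth limits miR-30b most, with 30 to 77 counts in WT.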

Other observations

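Log2 CPM of the members was correlated over the 9 libraries, which are 3 lines of 3 and differ in depth (descriptions over 9 points, without a test). Among pairs with neighbouring hairpins, Pearson r was 0.82 for miR-30b and miR-30d, 0.82 for miR-30a and miR-30c, and 0.42 for miR-30c and miR-30e. Among the other pairs it ranged from -0.10 for miR-30d and miR-30e to 0.61 for miR-30a and miR-30d, with 0.024 for miR-30a and miR-30e. Among 108 miRNAs outside the family with at least 10 counts in every library, those most like the summed family were miR-128 (r = 0.88), miR-218 (0.86) and miR-484 (0.86). miR-30c-2, the 3p strand entry of the hairpin next to Mir30a, was at 251 ± 60.4 CPM in WT, 263 ± 69.8 in Bbs4-/- and 201 ± 53.4 in Bbs6-/- (SD, n = 3 each), and miR-30c-1 was at or near the counting limit in every library.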
